A study of Mus musculus with 8 samples.

Results

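The glucocorticoid receptor gene Nr3c1, the enzyme gene Hsd11b1 and 8 genes known as targets of the receptor, namely Fkbp5, Tsc22d3, Klf9, Klf15, Cebpd, Ddit4, Sgk1 and Zbtb16, were followed in RNA-seq values of the soleus (SOL) muscle of mice that lack the transcription factor IRF4 in muscle. The 10 genes were picked out by symbol from the 24054 genes of the table, and all 10 passed the filter on low values (at or above 1 in 4 mice or more), which left 11865 genes for testing. They were chosen from earlier results of these same mice, in which 1 knockout mouse, MKO1283, stood apart for several of them. What that mouse shows in these genes is therefore given as a description, with no test.

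The knockout mice, called MI4KO, carried floxed Irf4 alleles together with Myl1-Cre, a Cre made in skeletal muscle fibres. Their controls, called flox, carried the floxed alleles without Cre. All 8 animals were male C57BL/6 mice, and the labels give a high-fat diet for each. There were 4 mice per group, each giving 1 library, and they are named here as in the labels: Flox1224, Flox1281, Flox1282 and Flox1285 for flox, and MKO1221, MKO1223, MKO1283 and MKO1284 for MI4KO. Ages, the hour at which the muscles were taken and blood corticosterone are not given in the sources used here. Myl1 is a myosin light chain gene of fast fibres, and cells of vessels, fat, nerve and blood in the frozen muscle keep their Irf4. In such whole-muscle values, fewer cells of a type and less RNA per cell cannot be told apart.

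Corticosterone, the glucocorticoid of the mouse, enters the cell and binds the receptor, which is held by HSP90 and its co-chaperones in the cytoplasm. The bound receptor moves to the nucleus, where it sits on paired half-sites in DNA and raises transcription of genes such as Fkbp5 and Tsc22d3, or lowers that of inflammatory genes. In skeletal muscle, glucocorticoids are known for slowing protein synthesis, raising protein breakdown and opposing the action of insulin.

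The table holds read counts scaled to the library total (CPM) after adjustment with TMM, a trimmed mean of log ratios, and whole reads could be recovered from it. They came to 13417512 to 16384565 reads per mouse, so that 1 read was worth 0.0604 to 0.0750 and 3 reads 0.181 to 0.225. The muscle identity of the libraries stood out in every mouse, with Myh7, the slow myosin heavy chain of soleus, at 11079 to 14577. Irf4 itself was measured at 0.686, 1.46, 1.58 and 1.68 in the flox mice and 0.725, 0.840, 0.266 and 1.03 in the MI4KO mice, on 4 to 23 reads, and Flox1224 lay within the MI4KO range (log2 fold change -0.45, limma unadjusted p = 0.0402; exact two-sided permutation p = 0.114). Such gene-wide values cannot show whether the floxed stretch was cut out. Flox1224 held RNA of liver genes, whose 10 markers summed to 172 there and to 5.66 to 14.5 elsewhere. MKO1283 was the highest of the 8 mice for 30.9% of all genes tested.

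Promoter windows are shown for 3 of the targets, each of which held at least 1 of the motifs searched. The first of these motifs is a short palindrome through which the receptor reads DNA. RefSeq gives 14 start windows for 7 of the 10 genes on GRCm38.p6 (Nr3c1, Cebpd and Zbtb16 had no entry), and the 250 bases before each start were searched on both strands. The receptor palindrome was written as GNACA, then 3 bases of any kind, then TGTNC. Its half-site was AGAACA (on the other strand TGTTCT), which overlaps the palindrome, and the E-box read by clock factors and other basic helix-loop-helix proteins was CACGTG. The palindrome was in 1 of the 14 windows, before the fifth of 6 Sgk1 starts, and in 0.387% of all 32851 windows of that length. The half-site was in 4 windows, of Sgk1 and Tsc22d3, against 16.1% of all windows. The E-box was in 3 windows, 1 each of Fkbp5, Klf15 and Sgk1, against 6.02% of all. Of the 3 windows shown, only that of Sgk1 held the palindrome or a half-site, and the Tsc22d3 window with a half-site is not shown. Capitals mark these motifs in the 3 windows, each 5′ to 3′ on the gene's own strand:
Sgk1, chr10:21993640-21993889, plus strand: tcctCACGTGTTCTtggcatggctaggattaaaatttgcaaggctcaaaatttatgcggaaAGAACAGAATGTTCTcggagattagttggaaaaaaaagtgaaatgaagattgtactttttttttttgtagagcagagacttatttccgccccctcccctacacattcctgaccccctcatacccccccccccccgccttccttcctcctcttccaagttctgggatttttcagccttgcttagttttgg
Fkbp5, chr17:28486150-28486399, minus strand: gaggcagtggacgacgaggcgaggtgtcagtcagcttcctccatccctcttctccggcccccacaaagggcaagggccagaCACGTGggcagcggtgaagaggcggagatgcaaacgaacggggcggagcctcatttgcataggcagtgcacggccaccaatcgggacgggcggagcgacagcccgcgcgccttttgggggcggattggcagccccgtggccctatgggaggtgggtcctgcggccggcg
Klf15, chr6:90462326-90462575, plus strand: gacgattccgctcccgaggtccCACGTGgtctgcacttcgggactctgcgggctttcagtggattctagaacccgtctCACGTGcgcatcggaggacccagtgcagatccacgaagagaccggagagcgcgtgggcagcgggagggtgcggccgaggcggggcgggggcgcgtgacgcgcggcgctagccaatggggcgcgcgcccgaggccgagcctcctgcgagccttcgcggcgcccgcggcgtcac
The Sgk1 palindrome lay at 21993702 to 21993714, 188 bases before that start site and 964 bases before the next one, with a half-site match on either arm. A further half-site near the 5′ end of this window overlapped its E-box. Klf15 held a pair of E-boxes. A match of letters is a description of the window and does not show that the receptor sits there.

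Values of the receptor and its activating enzyme did not stand apart in any mouse or group. Throughout, values are on the deposited TMM-normalized CPM scale, in the order Flox1224, Flox1281, Flox1282 and Flox1285, then MKO1221, MKO1223, MKO1283 and MKO1284. Nr3c1, the receptor, was at 80.9, 62.4, 75.0 and 60.8 in flox and 77.8, 72.4, 74.3 and 72.3 in MI4KO. All 4 MI4KO values, MKO1283 among them, lay within the flox range. Hsd11b1, whose enzyme makes active corticosterone from its inactive 11-keto form, was at 8.23, 8.46, 6.83 and 6.56 in flox and 8.27, 6.59, 8.51 and 8.76 in MI4KO. The groups overlapped, and MKO1284 was the highest by a narrow margin over MKO1283. MKO1283 was at 1.03 times the median of the other 7 mice for both genes, beside a median ratio of 1.05 over all genes tested.

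Fkbp5 and Tsc22d3 are the 2 targets most used as readouts of receptor activity. Fkbp5 (chromosome 17, 28399094 to 28517527), a co-chaperone that lowers the receptor's affinity for hormone, was at 23.3, 24.3, 27.8 and 31.2 in flox and 19.4, 19.4, 158.6 and 28.5 in MI4KO. MKO1283 was 6.51 times the median of the other 7 mice and 5.09 times the next highest, while 2 of the other 3 MI4KO mice lay below the flox range and 1 within it. Tsc22d3 (X, 140539528 to 140600659), which encodes the anti-inflammatory leucine zipper protein GILZ, was at 79.5, 70.3, 89.6 and 85.8 in flox and 68.7, 70.6, 112 and 75.4 in MI4KO. MKO1283 was again the highest, at 1.49 times the median, and the other 3 MI4KO mice were level with or below the lower flox values.

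The transcription factors among the targets followed, at different sizes. Klf9 (19, 23141226 to 23168134), a Krüppel-like factor, was at 159, 144, 154 and 165 in flox and 137, 140.0, 206 and 159 in MI4KO. Klf15 (6, 90462576 to 90475238), a regulator of amino acid breakdown in muscle, was at 62.3, 43.1, 51.5 and 50.8 in flox and 44.2, 49.1, 94.7 and 49.6 in MI4KO. In both, MKO1283 was the highest, at 1.33 and 1.91 times the median. For Klf9, MKO1221 and MKO1223 lay below the flox range and MKO1284 within it. For Klf15, the other 3 MI4KO mice lay within the flox range. Cebpd (16, 15887286 to 15891031), an acute-phase C/EBP factor, was at 18.6, 11.4, 26.0 and 18.5 in flox and 13.6, 16.9, 56.6 and 17.1 in MI4KO. Zbtb16 (9, 48654297 to 48836222), the zinc finger factor PLZF, was at 84.7, 61.6, 81.6 and 64.5 in flox and 66.4, 64.6, 149 and 75.8 in MI4KO. MKO1283 was at 3.31 times the median for Cebpd and 2.25 times for Zbtb16, and the other 3 MI4KO mice lay within the flox range for both. Exons of Cebpd overlap those of Spidr on the opposite strand, and whether the counting used strand is not given in the sources used here, so its reads are uncertain.

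Ddit4 and Sgk1 link the hormone to growth signalling. Ddit4 (10, 59949669 to 59951834), also known as REDD1, inhibits the kinase complex mTORC1 and is induced by hypoxia as well, and it was at 15.03, 8.81, 21.4 and 24.4 in flox and 13.5, 11.3, 90.1 and 10.3 in MI4KO. MKO1283 was at 6.68 times the median of the others, the largest ratio of the 10 genes. Sgk1 (10, 21882184 to 21999903), a kinase related to Akt, was at 49.7, 54.1, 68.4 and 60.8 in flox and 24.8, 44.8, 117 and 64.4 in MI4KO. Here MKO1283 was at 2.16 times the median, and MKO1221 was the lowest of all.

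**Figure D1:**
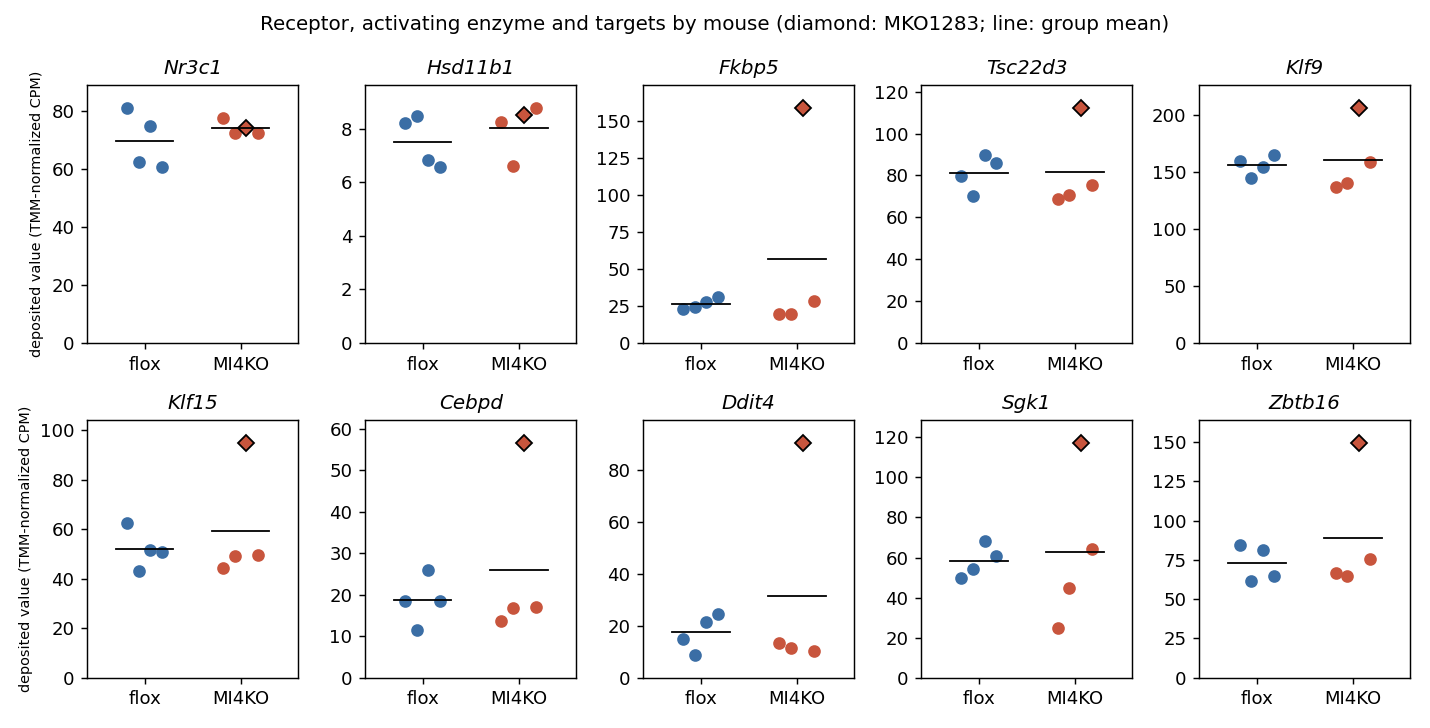
Deposited value (TMM-normalized CPM, linear axis from 0) of each gene by group, 1 point per mouse, 4 flox (blue) and 4 MI4KO (red); lines are group means and the diamond is MKO1283. Fkbp5 was at 158.6 in MKO1283 and at 19.4 to 31.2 in the other 7 mice, whereas Nr3c1 in MKO1283 (74.3) lay within the flox range of 60.8 to 80.9.

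Over all 10 genes, MKO1283 was the highest of the 8 mice for 8, against the 30.9% of all genes given above, and it was at least 2 times the median of the other 7 mice for 5 (Fkbp5, Cebpd, Ddit4, Sgk1 and Zbtb16), against 1.34% of all genes. These counts rest on the mouse for which the genes were chosen. Among all genes tested, 10 had a larger ratio in MKO1283 than Ddit4, 11 than Fkbp5 and 39 than Cebpd, whereas 543 exceeded Tsc22d3 and 1043 exceeded Klf9. The count of 8 stood under median-of-ratios scaling (21.4% of all genes), without Flox1224 (32.6%) and against the 4 other mice in the same range of mouse numbers (37.4%). Of the other 2 genes, Nr3c1 was highest in Flox1224 and Hsd11b1 in MKO1284. The lowest mouse was Flox1281 for 4 genes, MKO1221 for 4 and Flox1285 for 2.

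Among the other 7 mice the same genes spread unequally. Ddit4 and Sgk1 ranged 2.77-fold and 2.76-fold from the lowest to the highest of the 7, Cebpd 2.29-fold and Fkbp5 1.61-fold, beside a median range of 1.34-fold over all genes tested. Klf9 was the steadiest at 1.2-fold, followed by Tsc22d3 at 1.30-fold, Nr3c1 at 1.33-fold, Hsd11b1 at 1.34-fold, Zbtb16 at 1.38-fold and Klf15 at 1.45-fold. Reads behind a value numbered from 90 for Hsd11b1 to 3095 for Klf9.

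The comparison the study was built for, MI4KO against flox, was made with limma on log2(value + 1). It passed none of the 10 genes at the study's limits (unadjusted p under 0.05 and a change of at least 1.5-fold), which 26 genes or 0.219% of all genes tested passed. At a Benjamini-Hochberg adjusted p under 0.05 the share was 0% of all genes, while 399 genes had an unadjusted p under 0.05 (363 by edgeR and 248 by DESeq2 on the recovered reads, also with 0 adjusted calls). The study applied its limits to an edgeR test instead, and it lists Fkbp5 among genes changed in both soleus and gastrocnemius muscle. For Fkbp5, the edgeR quasi-likelihood test on the recovered reads gave an unadjusted p of 0.0949 here. The study does not name its kind of edgeR test, so the tests may differ. The groups did not overlap for 0 of the 10 genes and for 2.07% of all genes. Exact two-sided permutation tests of single genes gave p from 0.371 for Hsd11b1 to 0.971 for Tsc22d3, where 4 mice against 4 cannot go below 0.0286.

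The sizes and intervals of these differences set what the 8 mice could show. Fkbp5 averaged 26.6 ± 3.59 in flox and 56.5 ± 68.2 in MI4KO (SD, n = 4 each), 2.12 times as much. The mean of log2(value + 1), which limma compares, gives a single high mouse less weight, and the log2 fold change on it was 0.45 with a 95% confidence interval of -0.64 to 1.53, against 1.06 by edgeR and 1.06 by DESeq2, which compare mean reads. Without MKO1283 the MI4KO mean was 22.4 ± 5.28 (SD, n = 3) and the log2 fold change -0.25 (-0.54 to 0.04, limma adjusted p = 0.969). Ddit4 averaged 17.4 ± 6.94 and 31.3 ± 39.2 (SD, n = 4 each), and its log2 fold change of 0.26 (-0.92 to 1.45; 0.83 by edgeR and 0.83 by DESeq2) became -0.45 (-0.98 to 0.07) without that mouse. Thus 1 mouse set both the MI4KO mean and its error.

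Once MKO1283 was left out, the log2 fold change of Sgk1 was -0.47 (-0.94 to 0.01, limma unadjusted p = 0.0554, adjusted p = 0.969), from -0.10 with all 8 mice. With a covariate for the range of mouse numbers it was -0.22. Tsc22d3 came to -0.18 (-0.36 to 0.01, limma unadjusted p = 0.0577, adjusted p = 0.969), from -0.02. None of the 10 genes passed the limits in that fit, beside 32 genes or 0.27% of all. The narrowest interval over the 8 mice belonged to Nr3c1, with a log2 fold change of 0.10 (-0.11 to 0.30) and with 0.10 (-0.11 to 0.31) without MKO1283.

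The direction of the differences turned with that mouse. With all mice, 8 of the 10 log2 fold changes were above 0, beside 43.8% of all genes, with a median of 0.11 (all genes -0.01). Without MKO1283, 2 were above 0, those of Nr3c1 and Hsd11b1, beside 33.4% of all genes, with a median of -0.14 (all genes -0.04). Fkbp5, Klf9, Klf15, Cebpd, Ddit4 and Zbtb16 turned from above to below 0, and their log2 fold changes without it were -0.25, -0.10, -0.11, -0.17, -0.45 and -0.07.

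**Figure D2:**
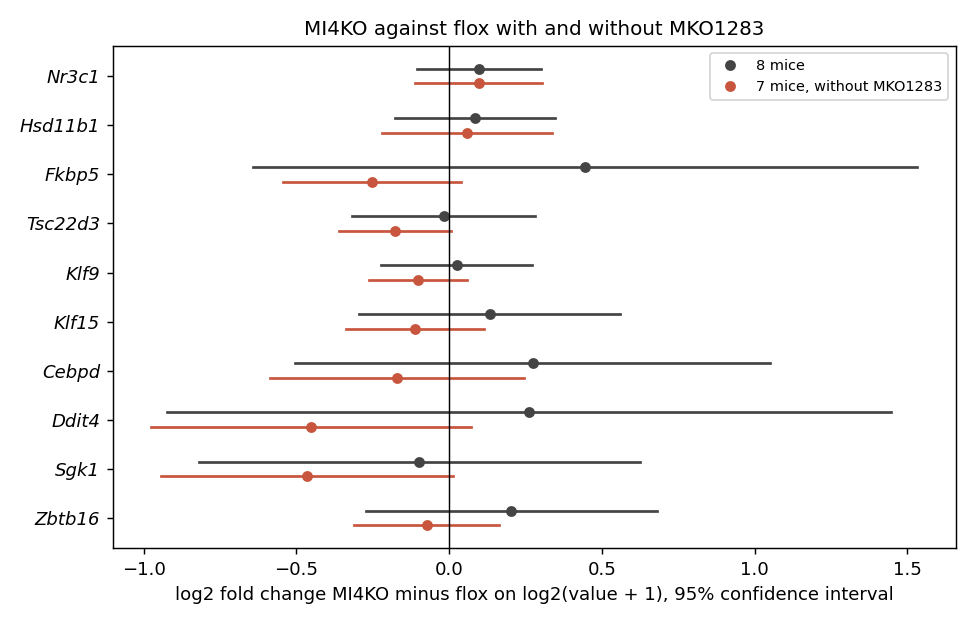
Log2 fold change of MI4KO minus flox on log2(value + 1) with its 95% confidence interval for each gene, over 8 mice (grey) and over the 7 mice without MKO1283 (red). Every interval includes 0, and the Fkbp5 interval narrows from -0.64 to 1.53 with all mice to -0.54 to 0.04 without MKO1283.

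Whether the targets moved together in mice other than MKO1283 was asked by relating Fkbp5 to the other 9 genes over the remaining 7 mice, on log2(value + 1). Sgk1 had r = 0.82 and rho = 0.857 (exact permutation p = 0.00655 and 0.0238, adjusted over the 9 relations 0.0589 and 0.214). Klf9 had r = 0.87 and rho = 0.786 (exact permutation p = 0.0181 and 0.0480, adjusted 0.0813 and 0.216). Both followed Fkbp5 upward from MKO1221 and MKO1223, which were lowest for all 3 genes, to the flox mice and MKO1284. Tsc22d3 came next at r = 0.75 and rho = 0.679 (exact permutation p = 0.0635 and 0.110, adjusted 0.190 and 0.246). By r with Fkbp5 over these 7 mice, Klf9 ranked 263, Sgk1 507 and Tsc22d3 937 among the 11865 genes tested. The rest of the 9 ranked from 3368 for Ddit4 to 10706 for Nr3c1. Many genes outside the 9 thus followed Fkbp5 more closely, so these relations do not set the targets apart from other genes.

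None of the 9 relations passed an adjusted p of 0.05. Without the 2 mice farthest from the median of Fkbp5, Flox1285 and MKO1221, r was 0.96 for Sgk1, 0.71 for Klf9 and 0.56 for Tsc22d3. Without Flox1224, the library with liver RNA, the Klf9 relation passed (r = 0.97, exact permutation p = 0.00278, adjusted 0.025, n = 6). Ddit4 and Cebpd had r = 0.48 and 0.43, Zbtb16 and Klf15 0.23 and 0.21, Hsd11b1 -0.13 and Nr3c1 -0.50, with adjusted exact permutation p from 0.496 to 0.777, and their rho ran from -0.68 to 0.43 with adjusted exact permutation p from 0.246 to 0.840. Each group and each range of mouse numbers held too few mice for a value of its own.

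**Figure D3:**
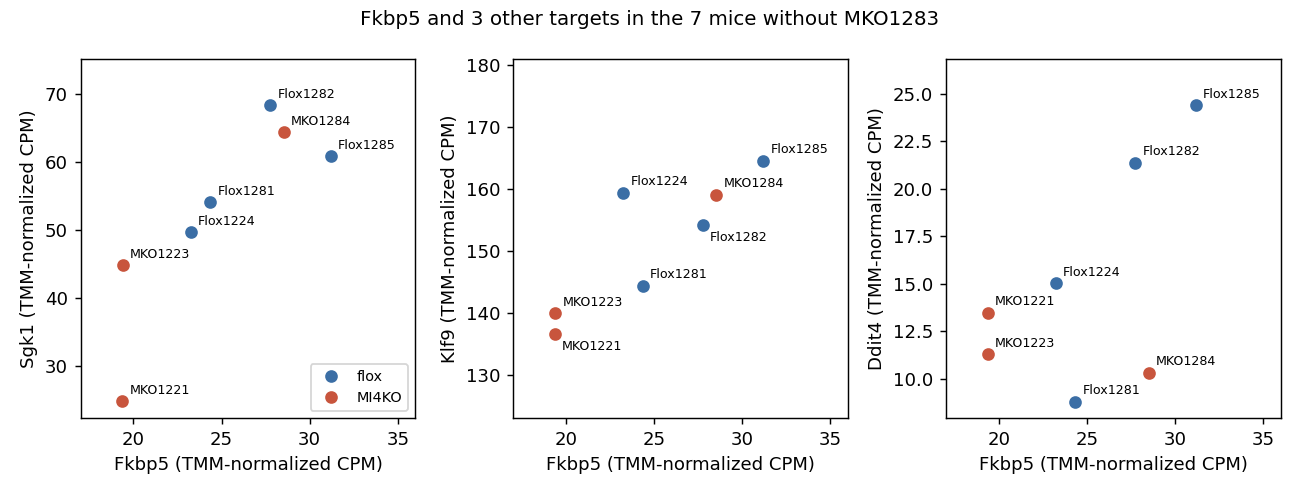
Fkbp5 (x axis) against Sgk1, Klf9 and Ddit4 (y axes), all TMM-normalized CPM, in the 7 mice without MKO1283, 1 point per mouse with its name, flox in blue and MI4KO in red; the axes do not start at 0. Sgk1 (r = 0.82) and Klf9 (r = 0.87) followed Fkbp5 more closely than Ddit4 (r = 0.48), and the 2 mice lowest for Fkbp5 were MKO1221 and MKO1223.

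The genes whose pattern was most like that of Fkbp5 depended on MKO1283. Over the 8 mice, the 5 highest Pearson correlations were those of Agt (0.994), Mff (0.987), Wbp1l, Eef2k and Rabgef1. Agt, the angiotensin precursor gene, was at 16.95 in MKO1283 and 5.56 to 7.5 in the other mice, and Wbp1l at 137 against 54.8 to 64.2. Over the 7 mice without it, the 5 were Numa1 (0.990), Zfp516, Dstyk, Zfp799 and Asxl1, none of which is on the first list. In MKO1283, Numa1 was at 80.6, within the 62.6 to 81.5 of the other mice.

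Around the receptor, the 23 genes of its machinery (chaperones, coactivators, corepressors, the related receptor Nr3c2 and the enzymes next to Hsd11b1) were below 2 times the median of the other mice in MKO1283. Of 22 tested, 0 passed the limits in either direction and 12 were highest in MKO1283, beside 30.9% of all genes. H6pd, which supplies NADPH to the Hsd11b1 enzyme, was at 52.7 there, 1.82 times the median, and 21.8 to 30.5 in the other mice. The coactivator Ncoa3 was at 42.1 against 22.7 to 33.1, and the co-chaperone Dnajb1 at 14.8 against 9.94 to 14.03. Nrip1, a corepressor with the highest log2 fold change of the list (0.31), was at 15.1, below the 15.8 of MKO1284, and Ncoa1 had the lowest (-0.15). The list's median log2 fold change was -0.01, as was that of all genes.

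A further 28 genes known to be induced by glucocorticoids were listed with earlier results of these mice known. Their counts in MKO1283 are therefore a description as well. Of 27 tested, 0 passed the limits in either direction. In MKO1283, 21 were highest, beside 30.9% of all genes, and 11 were at least 2 times the median, beside 1.34%. The metallothionein genes Mt1 and Mt2, which encode metal-binding proteins, were at 190.7 and 59.6 in MKO1283, against 17.8 to 26.3 and 1.67 to 7.63 in the other mice. Foxo1, a transcription factor of the fasting response, was at 124 against 29.1 to 41.8, and the arrestin-family gene Arrdc2 at 87.2 against 7.13 to 16.7. Rgs2, a G protein regulator, had the lowest log2 fold change (-0.25) and was at 4.32 in MKO1283, below the 5.44 to 8.74 of the rest. Without MKO1283, 4 of the 27 (Per1, Dusp1, Zfp36 and Arrdc2) had an unadjusted limma p under 0.05, all with lower MI4KO means, beside 594 genes or 5.01% of all, and 0 passed the limits. The list's median log2 fold change was 0.05 over the 8 mice and -0.09 without MKO1283.

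The genes that glucocorticoids are known to hold down were mostly too low to test. Of 24, 11 passed the filter, 0 passed the limits and 5 were highest in MKO1283, beside 30.9% of all genes tested. The leukocyte adhesion genes Selp, Icam1 and Vcam1 were at 15.7, 34.1 and 7.11 there, against 0.363 to 1.46, 3.12 to 5.48 and 3.28 to 6.59 in the other mice. Nos2, the inducible nitric oxide synthase, was the lowest there at 1.53, against 2.97 to 6.29. Fos, an immediate early gene, had the lowest log2 fold change (-0.52) and was at 16.1 in MKO1283, within the range of 6.38 to 31.6.

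Other programs that act on some of the same targets were read beside them. Of 16 circadian genes tested, 0 passed the limits. In MKO1283, 4 were highest and 6 lowest, beside 30.9% and 13.3% of all genes. Dbp, Nr1d1 and Bhlhe41, which are among the genes driven by the E-box, were at 53.7, 52.7 and 21.1 there. In the other mice they were at 108.8 to 169.9, 81.7 to 128.5 and 42.4 to 53.6. Not all clock genes were low in MKO1283. Per2, Tef and Nr1d2 were at 16.4, 209 and 84.1, within the 14.6 to 20.8, 185 to 218 and 77.4 to 96.7 of the other mice. Per1, from the induced list above, was highest in MKO1283. Arntl, which encodes the clock factor BMAL1, was at 13.9 against 3.43 to 9.76, and Rora, which encodes an activator of Arntl, at 70.9 against 40.3 to 50.6. The hour of sampling is not known, and its part in the target values was not tested here.

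The 18 genes of hypoxia and amino acid stress, programs that can raise Ddit4 without the hormone, were all tested and 0 passed the limits. In MKO1283, 6 were highest and 5 lowest, beside the 30.9% and 13.3% of all genes. Egln3, a hypoxia-induced hydroxylase, was at 244 against 131 to 173 in the other mice, and Psat1, of serine synthesis, at 12.6 against 6.56 to 9.05. The stress factor gene Ddit3 was at 21.4 against 25.3 to 57.2 and Trib3, a gene it induces, at 2.46 against 3.61 to 5.37. Asns had the highest log2 fold change of the list (0.38) and Atf3 the lowest (-0.39).

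**Figure D4:**
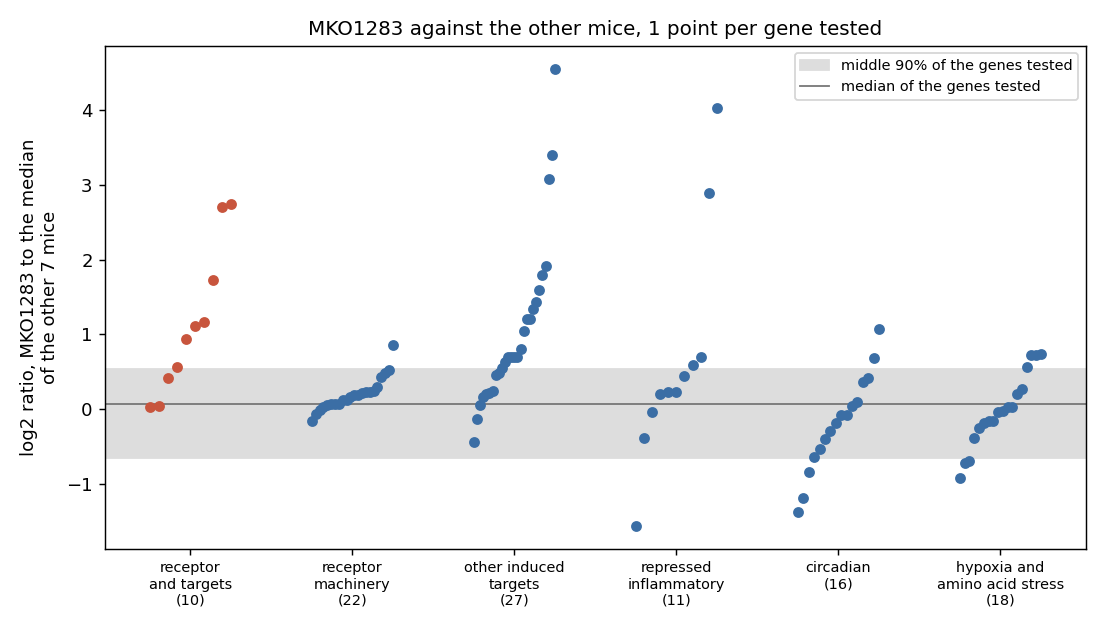
Log2 ratio of MKO1283 to the median of the other 7 mice (y axis), 1 point per gene tested, for the receptor with its targets (red) and the other lists (blue, number of genes in brackets); the band covers the middle 90% of all genes tested and the line their median. Fkbp5 and Ddit4, at 6.51 and 6.68 times the median, stand with Mt1, Mt2, Arrdc2, Icam1 and Selp far above the band, while the receptor machinery lies mostly within it.

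Markers of other cells were read for MKO1283 beside these results. The 5 neutrophil markers in the table summed to 6.38 there and 1.43 to 2.36 in the other mice. In MKO1283 4 of the 5 were highest, with S100a8 and S100a9 at 1.595 and 1.795, beside 30.9% of all genes tested. Only Cxcr2 of the 5 passed the filter on low values, and it was not highest in MKO1283. The 5 macrophage markers summed to 38.0 against 26.4 to 35.6, with 1 of the 5 highest in MKO1283. The 6 fast fibre markers summed to 41953 against 27668 to 36108, with 4 of the 6 highest in MKO1283. Myh4, the myosin heavy chain of the fastest fibres, went the other way at 55.8, 0.0671 times the median, and ranged from 34.5 to 2496 in the other mice. Adipocyte markers summed to 17.6 against 10.7 to 47.2, endothelial markers to 348 against 251 to 398, fibroblast markers to 285 against 256 to 419, red cell markers to 267 against 207 to 346, and Schwann cell markers to 89.2 against 93.9 to 127. Liver markers came to 7.91 in MKO1283, with 6 of the 10 at 0. The part of these cells in the target values was not tested.

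Markers were also compared between the groups in the fit without MKO1283, in which most targets had log2 fold changes below 0. In that fit, 0 genes had a Benjamini-Hochberg adjusted p under 0.05. Of 6 endothelial markers, with a median log2 fold change of -0.27, 3 had an unadjusted limma p under 0.05 (Pecam1, Cdh5 and Tie1). Of all genes tested, 5.01% had such a p. Pecam1, an endothelial adhesion molecule, was at 95.1, 100.4, 107 and 108 in flox and 73.1, 92.4 and 91.7 in those 3 MI4KO mice, with no overlap. Without MKO1283, the groups did not overlap for 623 of the 11865 genes tested. Of 5 red cell markers tested, 4 had such a p, with a median of -0.31, although Hbb-bs, 1 of the 4, was higher in MI4KO. Their part in the target values was not tested.

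Between the groups, the adipocyte gene Cfd was the single gene of all these lists past the study's limits with the 8 mice, with a log2 fold change of -0.65 (limma unadjusted p = 0.0394, adjusted p = 1.0). It was at 7.79, 12.6, 9.15 and 9.91 in flox and 2.90, 6.85, 4.72 and 11.7 in MI4KO, and the groups overlapped. Ppp1r3c, the glycogen-targeting phosphatase subunit on which the study turns, was at 222 to 283 in flox and at 293, 259.8, 1128 and 277 in MI4KO, so MKO1283 was at 4.12 times the median of the others for this gene too. The study also reports higher RNA of this gene by qPCR and more of its protein in MI4KO muscle, which these values do not cover. It describes its MI4KO mice on chow and calls its high-fat diet work ongoing, whereas the labels give these libraries a high-fat diet.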

How the data were processed

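RNA-seq was made from SOL muscle of 4 MI4KO and 4 flox mice with a stranded mRNA kit and single 50-base reads. Per the submitters' processing notes and the study's methods, the authors used bcl2fastq 2.17, aligned with Bowtie2 2.1.0, counted with RSEM 1.2.15 (build mm10) and applied TMM. The deposited values are a signal per gene, TMM-normalized CPM; their columns do not sum to 1 common total, and whole reads were recovered for 100% of values (within 0.1 read). The deposited fold changes and p-values of the authors' comparison were not used. Of 24054 rows, 6086 had no read and 27 carried symbols turned into dates.

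limma 3.58.1 (R 4.3.3) with a mean-variance trend was fitted to log2(value + 1) over genes that reached 1 in 4 mice or more, with no covariate, all 8 mice sharing 1 estimate of the spread. edgeR 4.0.16 and DESeq2 1.42.0 on recovered reads (RSEM estimates, whole in the table), other pseudocounts, filters and scaling, a covariate for the range of mouse numbers and each mouse left out in turn were alternatives. The fit was tested on simulated data. The 10 genes and all lists were chosen with earlier results of these data known. Named besides Irf4 and Ppp1r3c were, from each further list, the genes with the highest and lowest log2 fold change and any past the limits. Up to 4 genes per list farthest from the other mice in MKO1283 were also named. Outside the lists, the 5 genes closest to Fkbp5 over 8 and over 7 mice were named. S100a8, S100a9, Per1, Per2, Tef, Nr1d2, Dusp1, Zfp36, Cdh5 and Tie1 were named after their values were seen. Ly6g and Adgre1 had no row. No 2 libraries agreed within counting noise (lowest chi-square per degree of freedom 6.06), p-values measure the spread between single muscles of single mice, and read floors cover counting error only. Positions of genes follow GENCODE M21 (GRCm38, the assembly of mm10).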

Additional observations from a re-analysis of the deposited data

Results flagged for a closer look

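Highest and lowest values within each group of 4 were compared with their nearest neighbour, for genes named in the report. The gap was divided by the range of the group on log2(value + 1). The gap was above Dixon's 95% limit in 14 of 96 groups examined, a limit that about 1 in 20 groups pass by chance. In 10 of the 14 the mouse was MKO1283, but the 10 genes, and many of the others named, were chosen for its values, so its gaps describe that choice and test nothing. Among the receptor's targets, MKO1283 had gaps of 0.882 for Ddit4, 0.850 for Klf15 and 0.845 for Cebpd, above its group. Outside the 10 genes its gaps were those of Arrdc2 (0.945), Ppp1r3c (0.919), Mt1 (0.861), Wbp1l (0.856), Selp (0.853) and Foxo1 (0.834), and MKO1283 was below its group for Bhlhe41 (0.939, at 21.1).

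The other 4 flags fell on other mice. Rgs2 was highest in Flox1285 at 8.74 (0.924), Dbp lowest in Flox1224 at 108.8 (0.830), Atf3 lowest in MKO1221 at 21.6 (0.865) and Mff lowest in Flox1281 at 79.8 (0.847).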

How the results depend on the processing

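None of the 10 genes passed the limits under any alternative run, with or without MKO1283; DESeq2 gave no p for Fkbp5, which stays without one. Their log2 fold changes kept their sign in 144 of 170 alternatives and reversed in 26. Among alternatives of pseudocount, filter, scaling, tool and covariate within the fit without MKO1283, the sign held in 80 of 80. With 1 mouse left out at a time, values ran from -0.25 to 0.74 for Fkbp5, -0.45 to 0.55 for Ddit4, -0.17 to 0.49 for Cebpd, -0.11 to 0.25 for Klf15, -0.10 to 0.095 for Klf9, -0.073 to 0.33 for Zbtb16, -0.18 to 0.055 for Tsc22d3 and -0.47 to 0.27 for Sgk1. Tsc22d3 turned positive with median-of-ratios scaling (0.0031), the number range as covariate (0.043), edgeR (0.016) and DESeq2 (0.019), and Sgk1 with the covariate (0.13), edgeR (0.11) and DESeq2 (0.11). Without Flox1224 and MKO1283 together, values were -0.31 for Fkbp5, -0.089 for Klf9, -0.022 for Klf15, -0.15 for Cebpd, -0.49 for Ddit4, 0.0017 for Zbtb16 (-0.073 without MKO1283 alone) and -0.54 for Sgk1 (limma unadjusted p = 0.0448, below 1.5-fold). The 26 genes past the limits became 60 with a pseudocount of 0.25, 13 with robust estimation, 65 by edgeR, 51 by DESeq2, 41 without both libraries and 19 to 58 (the latter without MKO1284) with 1 mouse left out. Adjusted calls were 0 to 1 with 1 mouse left out (Hist2h3c2, adjusted p 8.47e-05 by limma, without MKO1223) and 1 without both libraries (Jmjd7-pla2g4b, 0.00549). Of the Fkbp5 relations, 1 passed without Flox1224 (Klf9). The cause of these moves was not tested. No paired analysis was possible because the groups share no mouse number. With 4 mice per group, 1 of them far from the rest, intervals for Fkbp5 and Ddit4 span more than a 2-fold change in one direction, and Hsd11b1 and Irf4 rest on few reads.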
